A study of Mus musculus with 30 samples.

Results

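Interferon-stimulated genes (ISGs) were examined in RNA-seq data from mouse heart and white adipose tissue. The set is a fixed list of 34 genes, taken by symbol from a table of 36558 genes, and all 34 were found and passed the filter on low counts in every fit. The list is defined by gene symbol with no threshold on a measured value, although it was drawn up with earlier results of these data known. The mice were C57BL/6J males that had received the viral vector AAV8 carrying either F11, the gene of coagulation factor XI, or green fluorescent protein (GFP) as the control. All animals, controls included, ate a high-fat diet (HFD) to which l-NAME, which blocks nitric oxide synthases, was added over 7 weeks, and tissues were taken at an age of 15 weeks. The groups were heart with AAV8-GFP (6 libraries), heart with AAV8-F11 (7), adipose tissue with AAV8-GFP (8) and adipose tissue with AAV8-F11 (8). The groups held no mice without a vector or on a plain diet, so no value here gives a level without AAV8 or without the diet.

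Type I interferons bind a receptor shared by nearly all cells, and the kinases JAK1 and TYK2 then pass the signal to STAT2 and related factors. STAT2 and IRF9 are part of the factor ISGF3, which binds the interferon-stimulated response element (ISRE) in the promoters of ISGs. Many products act against viruses directly, some sense viral RNA, and others, such as IRF7 and USP18, feed back on the pathway. In adipose tissue and heart, ISGs are expressed by parenchymal cells as well as by resident macrophages and endothelial cells.

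Promoter sequences of the members are shown for the shared response element. The list was chosen by gene name and not by promoter sequence. ISGs as a class are known for this element, however, so matches in their promoters were likely beforehand and are a description, not a test of the list. A core of the ISRE, GAAA followed by any 2 bases and a further GAAA (10 letters in all), was searched on both strands (TTTC, any 2 bases, TTTC on the reverse) in RefSeq windows of 300 bases, from 250 before to 50 after the annotated start, in GRCm38.p6. A window was matched for 24 of the 34 members, and 13 of these (54.2%) held at least 1 match, against 1079 of all 27025 genes with a window (3.99%) and 3.44% of all windows. In 10 members a match lay before the start, in Ifih1, Ddx58 and Eif2ak2 the match lay at or after it, and 11 members had a window with no match. The 6 members with 2 or more matches were Isg15, Ifit1, Ifit3, Ifit3b, Oas1a and Bst2, and 200 bases of each are printed 5′ to 3′ on the gene's strand, with the matched bases in capitals. Overlapping matches run together into one capital stretch.
Isg15: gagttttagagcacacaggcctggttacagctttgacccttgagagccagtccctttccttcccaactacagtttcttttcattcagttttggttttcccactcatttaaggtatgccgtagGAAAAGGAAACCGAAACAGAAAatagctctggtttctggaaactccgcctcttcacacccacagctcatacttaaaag
Ifit1: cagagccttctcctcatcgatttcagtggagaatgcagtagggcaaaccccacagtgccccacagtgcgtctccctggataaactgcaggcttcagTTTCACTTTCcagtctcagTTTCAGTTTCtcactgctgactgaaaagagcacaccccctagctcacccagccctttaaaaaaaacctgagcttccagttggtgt
Ifit3: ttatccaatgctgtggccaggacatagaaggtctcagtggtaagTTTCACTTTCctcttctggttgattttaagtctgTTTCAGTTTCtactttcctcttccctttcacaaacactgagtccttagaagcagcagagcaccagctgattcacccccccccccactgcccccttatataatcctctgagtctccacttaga
Ifit3b: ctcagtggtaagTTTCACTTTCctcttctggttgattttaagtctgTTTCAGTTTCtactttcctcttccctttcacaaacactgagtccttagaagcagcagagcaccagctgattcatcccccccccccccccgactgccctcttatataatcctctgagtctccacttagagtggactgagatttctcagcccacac
Oas1a: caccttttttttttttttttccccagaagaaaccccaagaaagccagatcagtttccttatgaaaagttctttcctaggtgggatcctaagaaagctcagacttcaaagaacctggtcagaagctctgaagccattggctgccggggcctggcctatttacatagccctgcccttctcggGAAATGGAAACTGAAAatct
Bst2: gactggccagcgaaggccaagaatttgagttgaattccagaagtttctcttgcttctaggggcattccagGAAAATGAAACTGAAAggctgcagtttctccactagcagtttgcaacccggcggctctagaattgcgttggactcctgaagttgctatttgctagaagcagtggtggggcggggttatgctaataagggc

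These stretches lie at chr4:156200819-156201018 (minus strand, Isg15), chr19:34640689-34640888 (plus, Ifit1), chr19:34583329-34583528 (plus, Ifit3), chr19:34607757-34607956 (plus, Ifit3b), chr5:120907526-120907725 (minus, Oas1a) and chr8:71537473-71537672 (minus, Bst2). Counted from the start as 0, the 3 overlapping matches of Isg15 began at -78, -72 and -66, those of Oas1a at -20 and -14, and those of Bst2 at -130 and -124. Ifit1, Ifit3 and Ifit3b had separate matches on the reverse strand, and the 2 windows of Ifit2 had none. The same pair of 10-base sites, TTTCACTTTC and TTTCAGTTTC, stood at -104 and -85 in Ifit1, at -156 and -122 in Ifit3 and at -188 and -154 in Ifit3b. Ifit3 and its neighbour Ifit3b share most of their transcript sequence. An end-to-end alignment of their 200-base stretches had 166 identical bases in 232 columns (71.6%). The stretches are out of step, since the same sites lie further from the start in Ifit3b, and bases without a partner counted as not identical. The share is therefore not the identity of the paired bases, which was higher. A match is a run of letters, not a measured binding site, and no binding was assayed.

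Libraries held estimated counts of 25.8 to 33.02 (in 1e6) in heart and of 15.9 to 26.3 in adipose tissue. The vector's own gene gave a partial check of the labels. In adipose tissue the mean of F11 was 1.11 ± 1.62 counts per 1e6 (CPM; SD over 8 libraries) in the GFP group, against 6.55 ± 4.74 CPM (SD over 8 libraries) in the F11 group (two-sided exact permutation test, p = 0.00295), while in heart it was at 0.0688 ± 0.140 and 0.0140 ± 0.0251 CPM (exact p = 0.437), too low to check anything. Cardiomyocyte and adipocyte markers were abundant in the tissues so labelled. In adipose tissue, 6 libraries carried a summed level of at least 1000 CPM of a marker list of another tissue. These were L136, L137, L145 and L146 (6 hepatocyte genes, 1394 to 5001 CPM), L140 (6 cardiomyocyte genes, 7606 CPM) and the F11 library L142 (5 genes of the male reproductive tract, 2595 CPM), and the main adipose and tissue results are also given without these 6. Hearts were not screened in this way. F11 heart L35 had 1197 CPM of the 6 skeletal muscle genes (median of the F11 hearts 297 CPM). GFP heart L2 had 160 CPM of the hepatocyte genes (median of the GFP hearts 1.44 CPM). Both hearts were kept in the main fits. The labels do not say that each library came from its own mouse, so a p-value here weighs only differences among samples, part of which may be technical.

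In heart, the levels of 28 of the 34 ISGs were higher on average with F11 than with GFP, by small amounts that did not exceed the spread between libraries. None of the 34 passed an adjusted p under 0.05 (edgeR quasi-likelihood test, two-sided, Benjamini-Hochberg over all 14684 genes), against 0.872% of all genes called, 0.518% higher and 0.354% lower. DESeq2 and limma voom also called 0 members. At an unadjusted p under 0.05, 1 member (Rtp4) was higher and 0 were lower, against 6.22% and 6.24% of all genes. The median log2 fold change (F11 over GFP) of the members was 0.16, with a range from -0.26 to 0.34, and that of all genes was -0.01, of which 47.5% were positive. The F11 and GFP libraries overlapped for each of the 34 members, where 1.1% of all genes had groups that did not overlap.

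Among the direct effectors, the 4 Ifit genes, whose products bind viral RNA, had positive log2 fold changes in heart between 0.23 and 0.34. Ifit3b was at 2.04 CPM in the lowest, 2.65 in the median and 3.23 in the highest GFP heart, and at 2.27, 3.27 and 5.30 CPM with F11. The highest F11 value was that of library L31, and L35, L36 and L39 (3.75, 3.69 and 3.27 CPM) also lay above the highest GFP heart, while the other 3 F11 hearts lay within the GFP range. Its log2 fold change was 0.34 (SE 0.17, adjusted p = 0.417), and 0.20 without L31. Ifit3 was at 5.30, 8.30 and 10.9 CPM with GFP and at 6.61, 9.26 and 13.5 CPM with F11 (log2 0.25, SE 0.18, adjusted p = 0.626; log2 0.15 without L31). Reads of these neighbours cannot be separated fully, since 61.8% of the 31-base stretches of Ifit3 transcripts also occur in Ifit3b and 55.2% of those of Ifit3b occur in another gene.

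The 5 oligoadenylate synthetase genes, of which the active enzymes make the second messenger that switches on RNase L, had positive fold changes in 4 cases. Oas1a was at 1.49, 1.80 and 2.53 CPM (lowest, median, highest) with GFP and at 1.84, 2.41 and 3.28 CPM with F11, so that all 7 F11 hearts lay above the GFP median (log2 0.31, SE 0.16, adjusted p = 0.443). Dhx58 and Oas2 were the other members with this pattern in heart, and the share of all genes with it was not computed. Of the Oas1a stretches, 68.8% also occur in another gene, nearly all in Oas1g, so the value belongs to the pair. Oasl2 was at 6.90, 8.94 and 10.9 CPM with GFP and at 8.85, 10.1 and 15.2 CPM with F11 (log2 0.23, SE 0.13, adjusted p = 0.478; log2 0.13 without L31). Oas3 ran the other way, with a log2 of -0.26 at 0.609 ± 0.150 CPM (SD, n = 6) against 0.507 ± 0.215 CPM (SD, n = 7). It was the least abundant member per length in both tissues, and the 1 member with a negative fold change in both.

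Of the 11 other effectors 10 had a positive fold change in heart. Rtp4, a chaperone that carries receptors to the cell surface, had the lowest p of all members. It was at 3.41, 4.45 and 5.04 CPM with GFP and at 4.06, 5.005 and 6.90 CPM with F11, a log2 fold change of 0.26 (SE 0.12, unadjusted p = 0.0386, adjusted p = 0.366) that was 0.18 without L31. Zbp1, a sensor of Z-form nucleic acid that can trigger cell death, had 0.27, Xaf1, a pro-apoptotic factor, had 0.18, and Cmpk2, a nucleotide kinase encoded beside Rsad2, had 0.17. Rsad2 (viperin) was at 0.06 and Bst2 (tetherin, which holds virus particles on the cell surface) at 0.01. Ifi27l2a, a small mitochondrial protein, had -0.15. The Mx genes, which encode antiviral GTPases, had -0.13 (Mx1) and 0.07 (Mx2).

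Genes that sense RNA or regulate the response showed the same small size of difference in heart. Dhx58, which encodes the helicase LGP2, was at 1.17, 1.31 and 2.00 CPM with GFP and at 1.38, 1.78 and 2.56 CPM with F11 (log2 0.33, SE 0.17, adjusted p = 0.417). Its relatives Ifih1 (MDA5) and Ddx58 (RIG-I, also called Rigi) were at 0.06 and 0.05. Among the transcription factors, Irf7, which amplifies interferon production, was at 6.59, 7.98 and 11.99 CPM with GFP and at 7.83, 10.1 and 12.5 CPM with F11 (log2 0.21, SE 0.15, adjusted p = 0.595). For Stat2, a subunit of ISGF3, the log2 difference was 0.16 ± 0.09 (SE), with an adjusted p of 0.502. Its partner Irf9 had 0.08 (adjusted p = 0.774, SE 0.09). Without L31 these were 0.09 for Stat2 and 0.0024 for Irf9. The groups overlapped for all of these genes.

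Isg15, a ubiquitin-like modifier, was at 1.41, 2.45 and 3.41 CPM with GFP and at 1.97, 2.63 and 3.52 CPM with F11 (log2 0.18, SE 0.20, adjusted p = 0.782). Usp18, the protease that removes ISG15 and damps the receptor, had 0.29, and Herc6, the mouse ligase that attaches ISG15, had -0.03. Parp9 and Dtx3l, whose products work as a complex and whose genes lie head to head on chromosome 16, had -0.03 and -0.02, and Parp14 had 0.01. Strand use in counting is not given in the sources used here, and 9.68% of the Dtx3l stretches lie on the opposite strand of another gene.

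**Figure D1:**
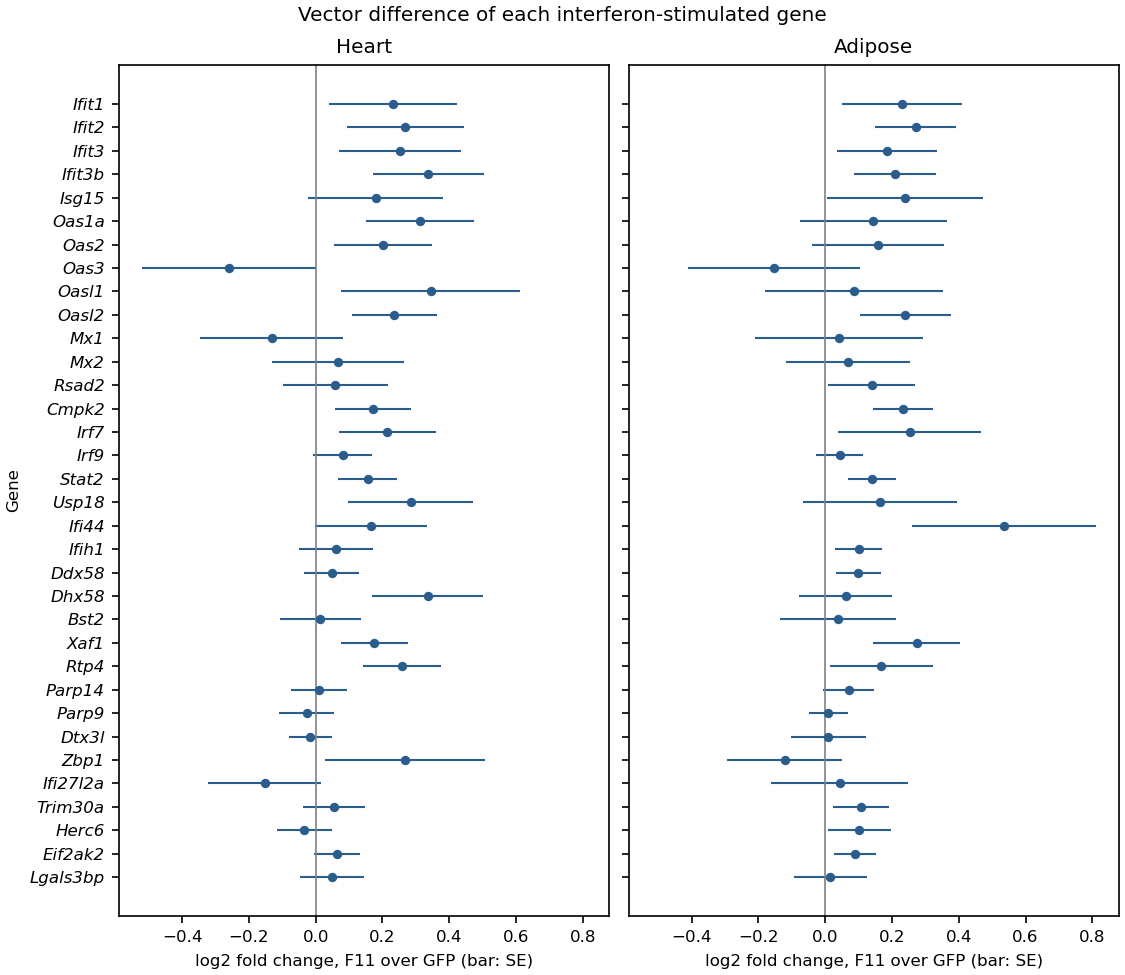
Log2 fold change (F11 over GFP, horizontal axis) of each of the 34 genes (vertical axis) in heart (left; 6 GFP and 7 F11 libraries) and adipose tissue (right; 8 and 8), with bars for the SE. Points lie right of 0 for 28 genes in heart and 32 in adipose tissue, and none passed the adjusted threshold.

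F11 library L31 weighed on the heart result. The median log2 fold change of the members fell from 0.16 to 0.08 when L31 was left out. Leaving out each heart library in turn gave medians up to 0.23 (without GFP library L8), with 23 to 31 members positive and 0 called in each case. Single GFP hearts moved Irf7 (0.15 without L5, 0.32 without L9) and Isg15 (0.07 without L6, 0.32 without L8). Cell type markers also differed in heart. The 6 cardiomyocyte markers summed to 37937 to 40677 CPM with GFP and to 43742 to 49519 CPM with F11, with 6 of 6 positive and 1, Myh6, called higher (log2 0.30, adjusted p = 0.00192). Of 12 macrophage markers 4 were positive and 0 called, and their sum was 183 to 236 CPM with GFP and 163 to 220 CPM with F11. The 6 mesothelial markers were all negative (median log2 -1.16, 0 called), and their sums did not overlap, at 11.5 to 18.6 CPM with GFP and 4.96 to 11.4 CPM with F11. The 6 fibroblast markers were all negative too (median -0.11, 0 called; sums of 636 to 807 CPM and 612 to 703 CPM). Of the 4 adipocyte markers tested 1 was positive (median -1.38, 0 called), and the sums of all 6 overlapped. The part of these markers in the ISG values was not tested. In bulk tissue, fewer cells of a type and less RNA per cell cannot be told apart.

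In adipose tissue, 32 of the 34 ISGs were higher on average with F11, again without any member past the threshold (edgeR, 15229 genes tested). The background was 0% of all genes called, so no gene of any kind passed, and DESeq2 and limma voom called 0 members. At an unadjusted p under 0.05, 2 members were higher (Cmpk2 and Ifit2) and 0 lower, against 2.55% and 1.64% of all genes. The median log2 fold change of the members was 0.10 (range -0.15 to 0.54), where the median of all genes was -0.00 and 49.8% were positive. Each member's groups overlapped, against 0.0197% of all genes without overlap. The adjusted p was 0.9996 for each member.

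Cmpk2 had the lowest p in adipose tissue. It was at 11.8, 12.3 and 15.7 CPM (lowest, median, highest) with GFP and at 12.9, 14.8 and 18.5 CPM with F11, a log2 fold change of 0.23 (SE 0.09, unadjusted p = 0.0192). It was the 1 member for which all 8 F11 adipose libraries lay above the GFP median, and the share of all genes with this pattern was not computed. Ifit2 was at 19.2, 24.1 and 26.0 CPM with GFP and at 21.3, 26.2 and 40.8 CPM with F11 (log2 0.27, SE 0.12, unadjusted p = 0.0396; log2 0.17 without L145). The 4 Ifit genes had fold changes between 0.19 and 0.27, and Ifit3 was at 16.9, 26.6 and 29.9 CPM with GFP and at 20.6, 26.9 and 40.6 CPM with F11 (log2 0.19, SE 0.15; log2 0.09 without L145).

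Ifi44, a cytoplasmic ISG product, had the largest fold change of the members in adipose tissue. It was at 3.15, 4.77 and 6.90 CPM with GFP and at 3.70, 5.91 and 14.8 CPM with F11 (log2 0.54, SE 0.28, unadjusted p = 0.0704). Libraries L145 (14.8 CPM), L146 (10.4 CPM) and L144 (7.29 CPM) lay above every GFP library and the other 5 F11 libraries lay within the GFP range. The log2 was 0.30 without L145. Xaf1 had 0.27 (SE 0.13, unadjusted p = 0.0509). Stat2 was at 36.5, 43.2 and 46.4 CPM with GFP and at 40.9, 46.3 and 59.9 CPM with F11 (log2 0.14, SE 0.07, unadjusted p = 0.0713; log2 0.09 without L145).

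Irf7 was at 15.0, 19.0 and 29.3 CPM with GFP and at 14.1, 20.9 and 39.8 CPM with F11, so the lowest of all 16 adipose values as well as the highest came from an F11 library (log2 0.25, SE 0.21; log2 0.10 without L145). Isg15 was at 2.20, 2.95 and 5.24 CPM with GFP and at 1.80, 3.69 and 6.44 CPM with F11 (log2 0.24, SE 0.23), the F11 values reaching further at both ends. Its log2 was 0.08 without L145 and 0.38 without GFP library L136. Irf9 had 0.04 (SE 0.07), which was 0.0075 without L142 and -0.017 with limma voom. The 3 RNA sensors had 0.06 to 0.10, the Parp9, Dtx3l and Parp14 group 0.01 to 0.07, and the Mx genes 0.04 and 0.07. Zbp1 (-0.12) and Oas3 (-0.15) were the 2 negative members.

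Library L145 weighed on the adipose result as L31 did in heart. Without it the median log2 fold change of the members was 0.07 and 26 were positive, and the other single omissions gave medians up to 0.15 (without L142). Without the 6 libraries that carried transcripts of other tissues, which left 5 GFP and 5 F11 libraries, the median was 0.09, 26 members were positive and 0 were called. The log2 fold change of Ifi44 was then 0.31, that of Irf7 0.28, that of Cmpk2 0.17 and that of Irf9 -0.018. Mx1, Mx2, Ddx58, Parp9 and Lgals3bp were then negative as well, down to -0.088 (Lgals3bp). Macrophage markers were lower on average with F11 for 12 of 12 genes and endothelial markers higher for 6 of 6, with 0 called in either list. Their part in the ISG values was not tested.

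The vector difference of the ISGs was not shown to differ between the tissues. None of the 34 members passed the test of that difference (edgeR interaction contrast over all 29 libraries) and 0 had an unadjusted p under 0.05, against 0.0242% of 16526 genes called and 3.72% and 3.71% with an unadjusted p under 0.05 in each direction. DESeq2 and limma voom also called 0 members. The median difference (adipose minus heart) was a log2 of 0.01. The lowest p-values were those of Zbp1 (log2 -0.40, SE 0.31, adjusted p = 0.860), Dhx58 (-0.29, SE 0.23, adjusted p = 0.871) and Ifi44 (0.36, SE 0.35, adjusted p = 0.913). The value of Zbp1 was -0.23 without L31 and that of Ifi44 0.12 without L145. Without the 6 adipose libraries with other tissues' transcripts, 0 members were called. In 27 members the fold change was positive in both tissues. Of all genes, 47.5% were positive in heart and 49.8% in adipose tissue, and the share positive in both was not computed. The members moved together from library to library, as described below, so these 27 are not separate agreements.

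The level of the ISGs differed far more between tissues than between vectors. The library labels of heart and adipose tissue form separate series, those of adipose tissue with a prefix G- that is left out here. Any handling that differed between these series cannot be told apart from tissue. Of the 34 members, 24 were higher and 3 lower in adipose tissue than in heart among GFP libraries (adjusted p under 0.05, edgeR over 16526 genes), against 43.4% and 36.8% of all genes. With the F11 libraries, 24 were higher and 2 lower, against 45% and 36.6%. The median log2 difference was 0.56 with 27 members positive, and that of all genes was 0.11 with 53.8% positive. Scaled over both tissues together, the GFP ranges did not overlap for 17 members, all with adipose tissue above heart, against 29.7% of all genes in that direction and 28.8% in the other. Mitochondrial genes made up 33.6 ± 1.13% (SD) of the counts in the 6 GFP hearts but 5.62 ± 2.29% (SD) in the 8 GFP adipose libraries. With those genes removed, 23 members were higher and 4 lower. Without the 6 adipose libraries with other tissues' transcripts, 22 were higher and 4 lower. Bst2 (log2 0.23, adjusted p = 0.134) and Xaf1 (0.18, adjusted p = 0.178) then lost the call, and Isg15 gained one (-0.73, adjusted p = 0.00733). Usp18, called in neither case, went from 0.18 to -0.059.

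Ifi27l2a had the largest difference. It was at 7.62, 10.4 and 14.4 CPM (lowest, median, highest) in GFP heart and at 250.4, 350.0 and 499 CPM in GFP adipose tissue, 33.01-fold higher (log2 5.05, SE 0.25, adjusted p = 1.38e-16). Lgals3bp, a secreted glycoprotein, was at 26.7, 35.98 and 43.3 CPM in heart and at 154.5, 214 and 279 CPM in adipose tissue, 5.90-fold higher (log2 2.56, SE 0.12, adjusted p = 6.54e-17). Zbp1 was 3.94-fold higher (log2 1.98, SE 0.23, adjusted p = 1.19e-08). These 3 genes had the largest positive differences, and their ranges did not overlap between tissues.

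The group of RNA sensors was higher in adipose tissue for 3 of 3 genes, by a log2 of 0.62 to 1.63 with Dhx58 at the top. The Parp9, Dtx3l and Parp14 group was higher for 3 of 3, by 0.42 to 1.33. The oligoadenylate synthetase group was higher for 4 of 5, by up to 1.45 (Oas1a). Stat2 (log2 0.46, SE 0.09, adjusted p = 2.54e-05) and Irf9 (0.43, SE 0.08, adjusted p = 4.39e-05) were higher, and so was Ifit3 (0.70, SE 0.18, adjusted p = 0.000745). Irf7 was not called (0.21, SE 0.20, adjusted p = 0.339). Its GFP ranges were 9.51 to 17.4 CPM in heart and 11.1 to 21.6 CPM in adipose tissue, and without the 6 libraries with other tissues' transcripts the log2 was -0.054.

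Rsad2, its neighbour Cmpk2, and Ifi44 were the 3 members lower in adipose tissue. Rsad2 was at 20.3, 29.2 and 47.4 CPM in GFP heart and at 14.6, 18.7 and 26.1 CPM in GFP adipose tissue (log2 -0.67, SE 0.15, adjusted p = 0.000212). Ifi44 had -0.68 (SE 0.25, adjusted p = 0.0159) and Cmpk2 -0.32 (SE 0.11, adjusted p = 0.0102). With F11 libraries in place of GFP the call of Ifi44 was lost (log2 -0.32, adjusted p = 0.226). Isg15 lay next to the threshold (log2 -0.51, SE 0.24, adjusted p = 0.0524). Its ranges were 2.04 to 4.94 CPM in heart and 1.67 to 3.87 CPM in adipose tissue, and it passed under other settings, with an adjusted p of 0.0396 in DESeq2.

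The tissues differed in cell makeup as well. All 12 macrophage markers were higher in GFP adipose tissue than in heart (median log2 2.49), and their sum, scaled within each tissue, was 992 to 4551 CPM in GFP adipose tissue and 183 to 236 CPM in GFP heart. Of the 6 endothelial markers 1 was higher and 3 lower. The part of cell makeup in the tissue difference of the ISGs was not tested.

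**Figure D2:**
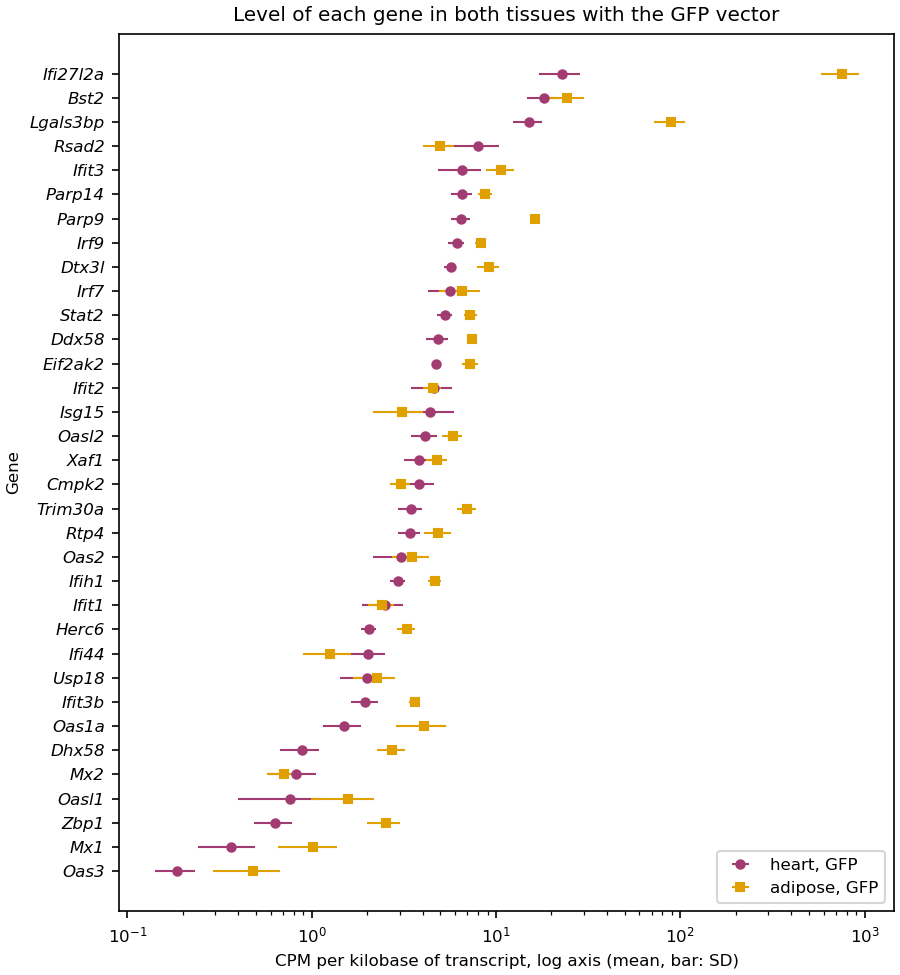
Level of each gene (vertical axis, ordered by heart) as CPM per kilobase of its longest coding transcript (horizontal log axis; mean, bar SD) in GFP heart (circles, n = 6) and GFP adipose tissue (squares, n = 8). Ifi27l2a and Lgals3bp lie furthest apart. Rsad2, Cmpk2 and Ifi44 (called lower) and Isg15, Mx2, Ifit1 and Ifit2 (not called) have a lower mean in adipose tissue.

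Compared per kilobase of transcript, the members spanned a wide range of levels. In GFP heart the highest were Ifi27l2a (22.8 ± 5.72 CPM per kilobase; SD, n = 6), Bst2 (18.2 ± 3.40) and Lgals3bp (15.1 ± 2.68), whose mean ± SD intervals overlapped from one to the next. Rsad2 followed at 7.95 ± 2.49, and Ifit3, Parp14 and Parp9 at 6.54, 6.54 and 6.48 did not differ beyond their spread. The lowest were Zbp1 (0.636), Mx1 (0.368) and Oas3 (0.186), and the highest gene stood 122-fold above the lowest. In GFP adipose tissue the highest were Ifi27l2a (753 ± 173; SD, n = 8), Lgals3bp (89.0 ± 17.4) and Bst2 (24.3 ± 5.66), which were separated by more than their spread. Oas3 was again the lowest (0.481 ± 0.189). Mx1, whose gene is defective in most inbred laboratory strains, was among the 3 lowest members in both tissues.

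The members moved together from library to library, after the mean of each vector group was removed. In heart the median Pearson r between 2 members was 0.62 over 561 pairs and 13 libraries, and 98.4% of the pairs were positive, against a median of -0.00 for pairs drawn from all genes tested. In adipose tissue the median r was 0.45 over 16 libraries with 83.6% positive, against -0.00. Genes in 1 library share its depth, RNA and cell makeup, so these values are descriptions across genes and carry no test. The members also varied more than other genes in heart, with a median SD of log2 CPM of 0.29 against 0.13. In adipose tissue the medians were 0.29 and 0.25.

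**Figure D3:**
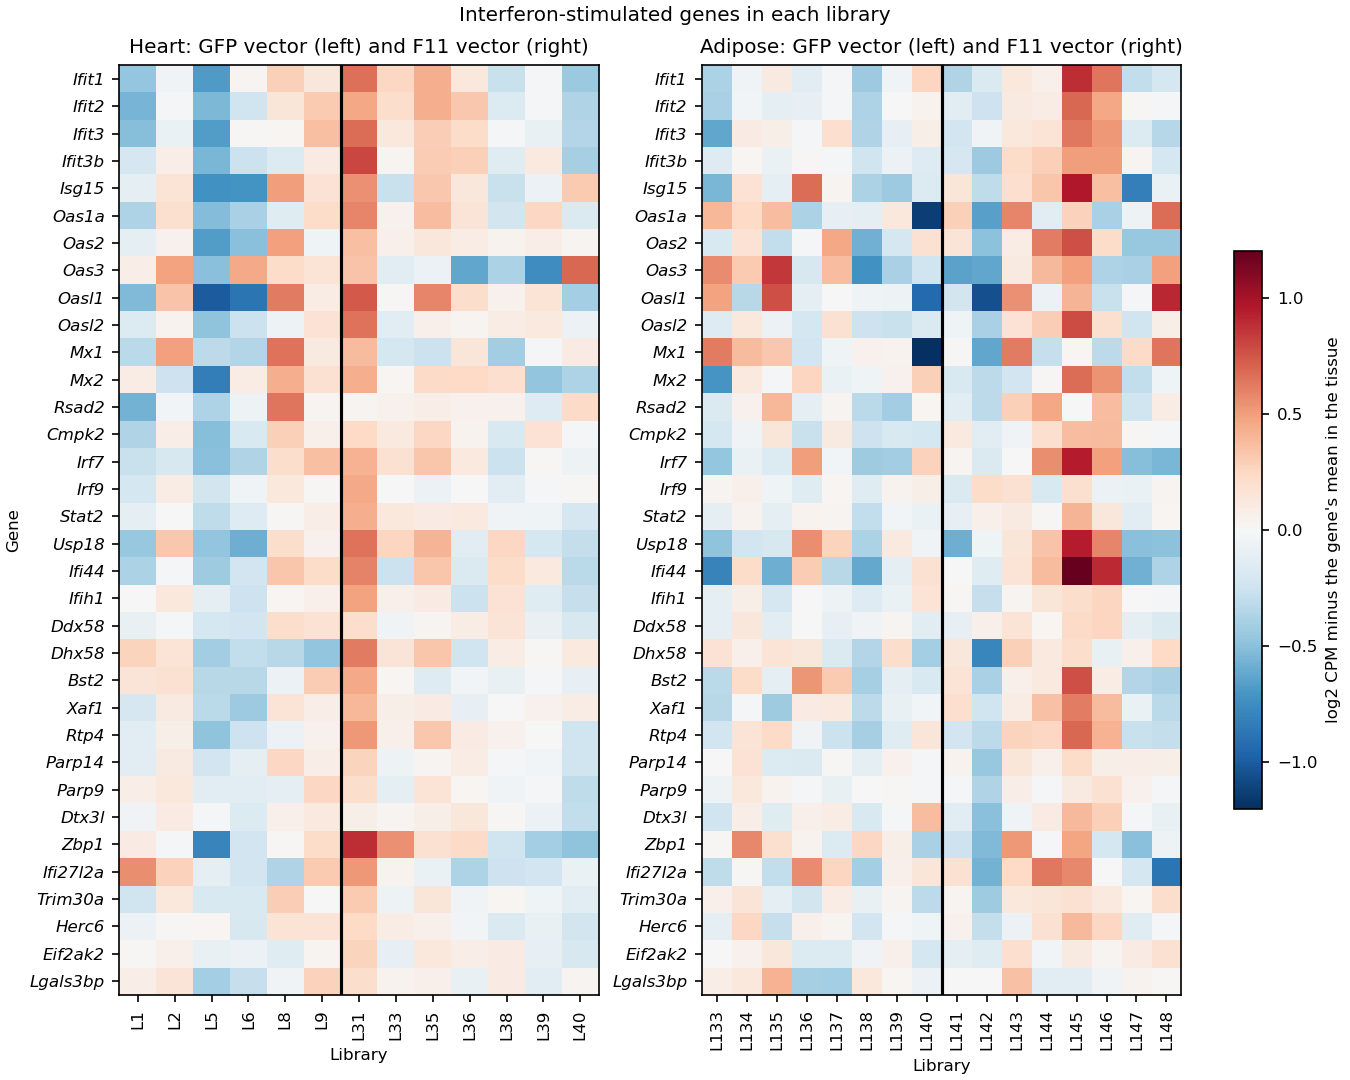
Log2 CPM of each gene (vertical axis) in each library (horizontal axis) minus the gene's mean in that tissue, red above and blue below, with GFP libraries left and F11 libraries right of the black line. Whole columns share a colour in heart, as in L5 (low) and L31 (high), while in adipose tissue L145 is high for most genes and Oas1a, Oasl1 and Mx1 follow another pattern.

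Single libraries carried much of this shared movement. In heart, L31 (F11) had the highest level of the tissue for 24 of the 34 members and lay above its group median for 33, with a mean of 0.45 log2 above the tissue mean. L5 (GFP) had the lowest level for 17 members, lay above its group median for 1, and averaged -0.41. In adipose tissue the F11 library L145 was highest for 17 members (mean 0.48), and the F11 library L142 was lowest for 11 (mean -0.33). Both extremes of adipose tissue were F11 libraries. L145 and L142 are among the libraries with transcripts of another tissue (hepatocyte and male reproductive tract), and the part of those transcripts was not tested. In heart the macrophage sum of L31 was 220 CPM, the highest of the 7 F11 hearts and below GFP libraries L2 and L9 (236 and 223 CPM). L5 had the lowest sum of the GFP hearts (183 CPM). L40, with the lowest mean of the F11 hearts (-0.14), had the lowest sum of all hearts (163 CPM). Some other hearts did not follow this order. L1 (GFP) had a sum of 220 CPM with a mean of -0.15. L8, with the highest mean of the GFP hearts (0.14), had 206 CPM, and L35 (F11) had 187 CPM with a mean of 0.17. The part of macrophage number in these library means was not tested.

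**Figure D4:**
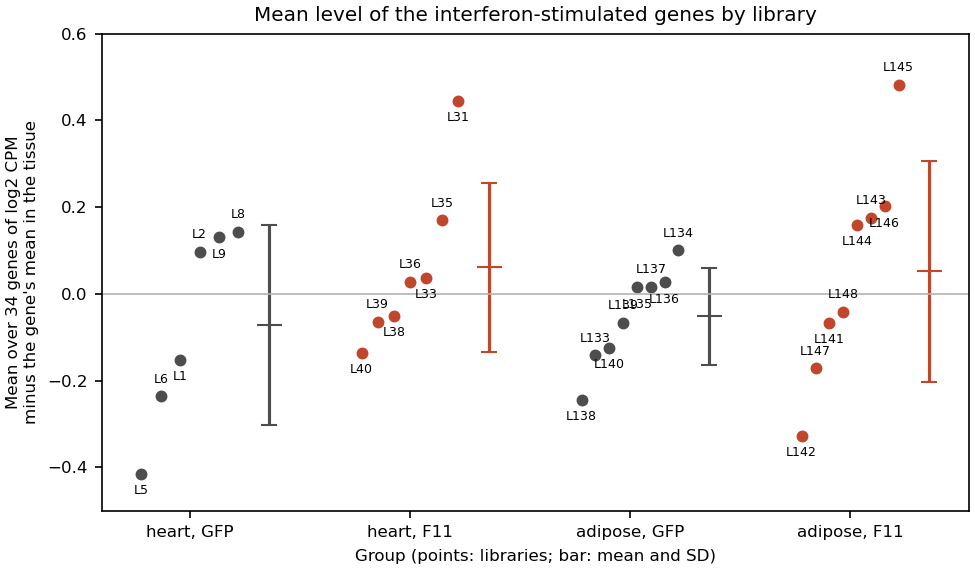
Mean over the 34 genes of log2 CPM minus the gene's tissue mean (vertical axis) for each library (points), by tissue and vector, with the group mean and SD. The groups overlap, at -0.07 ± 0.23 and 0.06 ± 0.19 in heart and -0.05 ± 0.11 and 0.05 ± 0.25 in adipose tissue (GFP, then F11).

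In heart, 30 of 34 members had a median r above 0.5 with the other members, led by Parp14 and Stat2 (both 0.75). The lowest were Oas3 (0.26), Dhx58 (0.30), Ifi27l2a (0.35) and Rsad2 (0.42). Per kilobase, Oas3 and Dhx58 are among the less abundant members in heart, and Ifi27l2a and Rsad2 among the most abundant. In adipose tissue 18 members had a median r above 0.5, led by Ifi44 (0.72), Irf7 (0.67) and Ifit2 (0.67). There, 5 members were below 0.1, namely Oas1a (0.04), Oasl1 (0.08), Mx1 (-0.05), Irf9 (0.01) and Lgals3bp (-0.16), while in heart no member was. The median r over all pairs was 0.54 in heart without L31, 0.39 in adipose tissue without L145, and 0.40 without the 6 libraries with other tissues' transcripts.

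Correlations with Irf7 across libraries were tested by permutation within vector groups and adjusted over 6 relations, of which 4 are reported here. In heart, Irf7 rose and fell with Isg15 (r = 0.76, rho = 0.83, permutation p = 0.0108, adjusted 0.0129) and Ifit3 (r = 0.79, rho = 0.79, permutation p = 0.00341, adjusted 0.00511). In adipose tissue it did so with Isg15 (r = 0.87, rho = 0.86, permutation p = 2e-05, adjusted 0.00012) and Ifit3 (r = 0.79, rho = 0.81, permutation p = 0.00077, adjusted 0.00154). The adjusted p-values of rho lay between 0.0003 and 0.00484 for these 4 relations. Without the 2 libraries farthest from the median of Irf7, r was 0.70 and 0.74 in heart (L9 and L8 left out) and 0.76 and 0.76 in adipose tissue (L145 and L136 left out).

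Among the members that stood outside the adipose pattern, Oas1a, Oasl1 and Mx1 were low where the macrophage markers were lowest and high where they were highest. Mx1 was at 1.55 CPM in L140 and 2.83 CPM in L142, the libraries with the lowest macrophage sums (992 and 1220 CPM), and at 6.95 CPM in L148 and 6.89 CPM in L133, which had the highest (4833 and 4551 CPM). Oas1a was at 4.72 and 6.60 CPM in the former and at 16.6 and 13.8 CPM in the latter. Oasl1 was at 2.29 and 2.10 CPM and at 8.43 and 6.29 CPM. L140 and L142 are both among the 6 libraries with other tissues' transcripts. Of the other 10 libraries L144 had the lowest macrophage sum (1839 CPM), with Mx1 at 3.64, Oas1a at 9.51 and Oasl1 at 4.25 CPM. L145, with the third-lowest sum of all 16, broke the order, with Oas1a at 12.6, Oasl1 at 5.94 and Mx1 at 4.49 CPM. Irf7, Ifit3 and Ifi44 were all highest in L145, which had a macrophage sum of 1289 CPM. Irf7 was at 25.1 and 18.3 CPM in L140 and L142 and at 14.1 and 15.0 CPM in L148 and L133. All genes in this comparison were chosen after their values were seen, and the part of macrophage number in them was not tested.

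**Figure D5:**
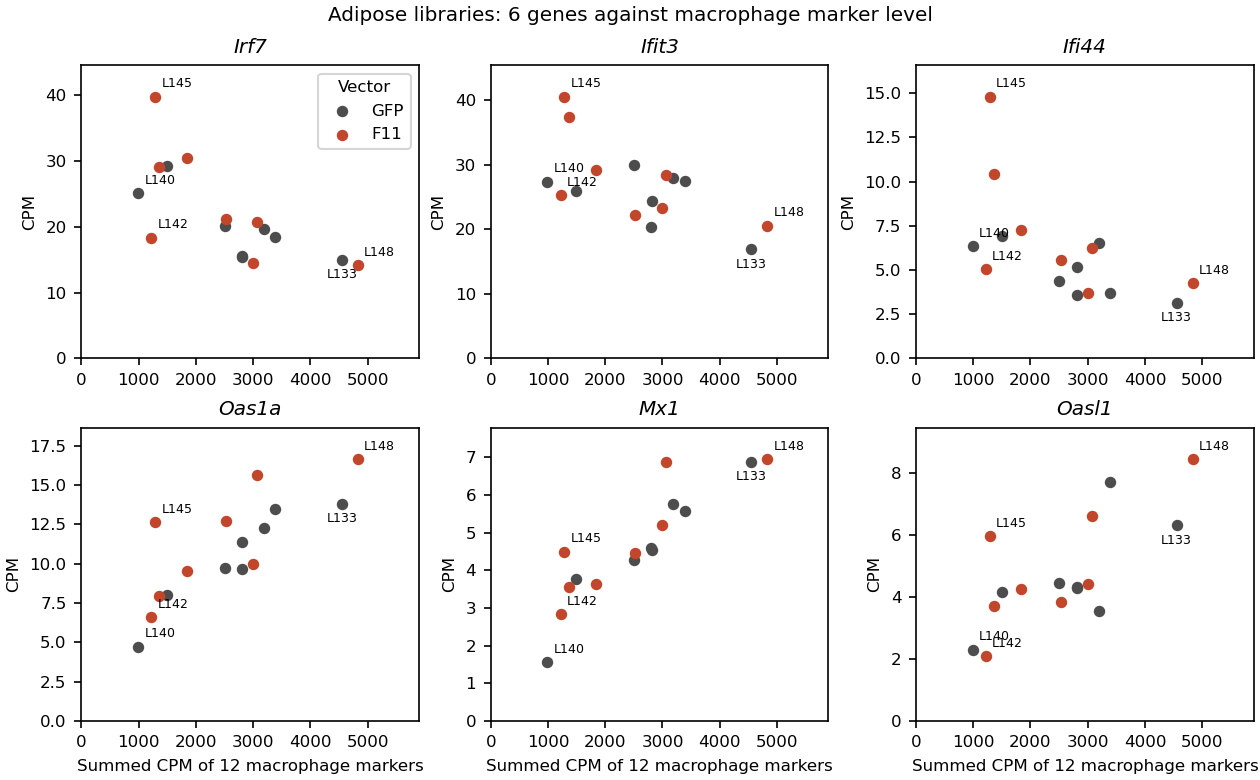
CPM of 6 genes (vertical axes) against the summed CPM of 12 macrophage markers (horizontal axes) in the 16 adipose libraries, grey for GFP and red for F11. Oas1a, Mx1 and Oasl1 (lower panels) are low in L140 and L142 and high in L148, while Irf7, Ifit3 and Ifi44 (upper panels) are highest in L145.

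The genes outside the list whose level was most like the mean of the members were taken by Pearson r, among 12864 genes in heart (13 libraries) and 14453 in adipose tissue (16 libraries). Rnf213, a large ubiquitin ligase, came first in both tissues (r = 0.89 and 0.88). In heart it was followed by Cd40, Tmem132a, Tmem106a, Galnt10, Lgals9, Cd34, 4930452B06Rik, Uba7 and Loxl2 (r down to 0.85). In adipose tissue it was followed by Ifi203, Ifi47, Parp10, Parp12, Phf11d, Ppil3, Ets1, Uba7 and Irgm1 (r down to 0.81). Uba7, the enzyme that activates ISG15, was in both sets of 10.

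Upstream of the members, the interferon genes were at the counting limit. Ifna1, Ifna4, Ifna5, Ifna6, Ifna11, Ifna13, Ifnb1, Ifnl2 and Ifnl3 had 0 counts in every library, where a count of 0 allows up to 3 counts per library. Ifng, the type II interferon made by T and natural killer cells, summed to 1 and 2 counts in GFP and F11 heart and to 18 and 8 counts in GFP and F11 adipose tissue. Ifna2, Ifne and Ifnk had at most 5 summed counts in a group. Ifnz, an interferon zeta gene, summed to 5.88 and 22.1 estimated counts in heart (GFP, F11) and to 16.7 and 6.45 in adipose tissue. No interferon gene passed the filter in heart or in adipose tissue, so none was tested, and a vector difference in the ligands was not detectable at this depth.

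None of the wider pathway lists held a gene past the threshold in either tissue by vector. In heart, 31 of 50 other type I ISGs had a positive fold change (median log2 0.02), led by p by Ifi205 (0.58, adjusted p = 0.190) and Helz2 (0.22, adjusted p = 0.263). The other lists had 5 of 11 positive for receptors, kinases and STATs, 8 of 18 for sensors and adaptors, 8 of 13 for negative regulators and 12 of 26 for genes induced mainly by interferon gamma. In adipose tissue 34 of 51 other type I ISGs were positive (median 0.03), with Ddx60 at 0.34 (SE 0.10, adjusted p = 0.939) and Sp100 at 0.22. Socs3, a feedback inhibitor of JAK kinases, had -0.49 (SE 0.14, adjusted p = 0.939) as the lowest p of 13 negative regulators, of which 5 were positive. In the remaining adipose lists 3 of 12 receptors, kinases and STATs, 4 of 18 sensors and adaptors and 14 of 27 interferon gamma genes were positive.

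Between tissues, the pathway lists differed widely. Of 51 other type I ISGs 39 were higher and 4 lower in GFP adipose tissue than in heart, and of 18 sensors and adaptors 15 were higher. Ikbke, a kinase that activates IRF3 and IRF7, was 11.5-fold higher (log2 3.52, adjusted p = 1.38e-12), and Mavs, the mitochondrial adaptor of the RNA sensors, was the 1 gene of that list that was lower (log2 -0.97, adjusted p = 3.23e-17). The receptor chain Ifnar2 was higher (log2 1.28, adjusted p = 2.06e-13). Ifngr1 and Ifngr2, the chains of the interferon gamma receptor, went opposite ways (log2 1.96 and -2.20, adjusted p = 1.32e-16 and 7.09e-15). These counts stand against 43.4% of all genes higher and 36.8% lower.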

How the data were processed

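The deposited values were estimated counts per gene that the authors made with kallisto 0.46 on GRCm38.p6, per the submitters' processing notes. The sources used here do not give the annotation, the summing to genes or a strand setting, and 30.8% of the values were not whole. Symbols and coordinates came from GENCODE M21 for 35856 of 36558 gene IDs. The labels name 30 libraries and 29 were analysed. L10 of the GFP hearts had no values among the counts used here, so it could not be analysed. The members and lists were chosen with earlier results of these data known.

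Counts were rounded and tested with edgeR 4.0.16 in R 4.3.3 (filterByExpr, TMM, robust quasi-likelihood test, two-sided, Benjamini-Hochberg over all genes tested, threshold 0.05). Each tissue was fitted alone for the vector, and both together for the tissue difference. CPM is scaled within a tissue, except in comparisons of levels between tissues or genes, which use 1 scaling over both; lengths are those of the longest coding transcript. Promoter windows came from RefSeq and 31-base sharing from the GENCODE transcripts. Full statistics were given to the 5 members with the lowest p in a tissue, the 3 lowest for the tissue difference of the vector effect, the 3 largest and 3 smallest differences between tissues, and Irf7, Irf9, Stat2, Isg15 and Ifit3. In each pathway list, called genes or the 2 lowest p-values could be named. Results for 1 further gene, outside the member list, are not reported here.

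On simulated data, the heart fit (14556 genes) recovered 44% of genes changed 1.25-fold, 79.6% at 1.5-fold and 95.8% at 2-fold. The adipose fit (15102 genes) recovered 6%, 32.7% and 79.2%. The changed genes were drawn at random from all genes tested, so these shares are not those of the members. The median biological coefficient of variation between libraries was 0.175 for the members and 0.086 for all genes in heart. In adipose tissue it was 0.211 and 0.193. Recovery of changed members, which was not simulated, may therefore be lower, above all in heart. Alternatives were RLE size factors, no filter, a mean of at least 1 CPM, DESeq2 1.42.0, voom of limma 3.58.1 with quality weights on unrounded values, a fit over all libraries, removal of mitochondrial genes, F11 in place of GFP libraries, a prior count of 0.5, and leaving out each library in turn. Leaving out the 6 adipose libraries with transcripts of other tissues was added after seeing the data.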

Additional observations from a re-analysis of the deposited data

Results flagged for a closer look

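A library far from the rest of its group was found for 14 of 140 groups of values tested, a gap test that chance meets in about 1 of 20 groups. Values within a library are not independent across genes. In heart, all 6 cases were F11 library L31 as the highest, with Bst2 at 13.6 CPM (the next library at 10.1), Ifi27l2a at 9.74 CPM, Irf9 at 17.6 CPM (next 13.0), Oas2 at 11.4 CPM, Oasl2 at 15.2 CPM (next 10.5) and Xaf1 at 9.67 CPM. In F11 adipose tissue, L145 was highest for Bst2 (43.7 CPM, next 28.6) and Stat2 (59.9 CPM, next 49.5), and L143 for Lgals3bp (354.3 CPM). L142 was the lowest for 4 genes there, Dhx58 (5.14 CPM, next 8.34), Parp14 (64.7 CPM, next 91.8), Parp9 (60.6 CPM) and Trim30a (27.1 CPM). In GFP adipose tissue, L133 was the lowest for Mx2 at 1.37 CPM (next 2.17).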

How the results depend on the processing

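With other size factors, filters, tools or scaling, the counts of called members, the counts of positive members, the medians and the median correlations kept their direction and stayed within 1.5 times the reported value (or within the spread for medians), in all 85 values computed. For the median log2 fold changes, the spread was the SD of the GFP library means (0.23 in heart, 0.11 in adipose tissue). It exceeded the medians themselves (0.16 and 0.10), so it was a wide limit. The number called by vector was 0 under each setting. Single genes kept their direction and call in 216 of 224 values. Irf9 in adipose tissue reversed to -0.017 with limma voom and to -0.018 without the 6 libraries with other tissues' transcripts, and the tissue difference of Irf7 reversed to -0.054 without them; the cause was not tested. Leaving out 1 library moved the median log2 fold change between 0.08 and 0.23 in heart and between 0.07 and 0.15 in adipose tissue, positive members between 23 and 31 and between 26 and 32, the median r between 0.54 and 0.66 and between 0.39 and 0.49, and the members higher in adipose tissue between 22 and 24 (lower, 2 to 4). Isg15 between tissues passed in 5 of 29 such omissions (adjusted p 0.0138 to 0.175). No paired analysis was possible because the groups share no replicate numbers. Few counts (from 8 in a heart library and 23 in an adipose library) limit Oas3 and Mx1. In heart they also limit Zbp1 (from 13), Oasl1 (from 15) and Mx2 (from 19). The simulated adipose fit missed most of the smallest changes.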
